A study of Homo sapiens with 4 samples.

Results

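The genes described here are 38 enzymes of nucleotide and one-carbon metabolism, chosen by gene name from pathway knowledge with earlier results of these data known. They were looked up in a table of 28412 genes. They fall into 6 groups by step: 9 of purine synthesis, 8 of pyrimidine synthesis, 8 that make deoxynucleotides, 5 of the folate cycle, 3 of serine synthesis and 5 of the methionine cycle and polyamine synthesis. All 38 were found in the table, and 37 averaged 1 FPKM or more across the 4 libraries and were tested. FPKM is a fragment count divided by the length of a gene's exons and by the total count of its library, though the summed FPKM of a library and the exon length used for a gene can differ, which limits comparison between libraries and between genes.

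RNA was sequenced from cells labelled NB4, a human acute promyelocytic leukemia line, to ask which transcripts change when the adaptor protein LDB1 is depleted. LDB1 does not bind DNA itself and joins LIM-domain and GATA-family factors into complexes at enhancers and promoters. There were 2 groups of 2 libraries: sh-LDB1, which carried a short hairpin RNA against LDB1, and sh-NC, which carried a control hairpin. In both groups the hairpin came from a lentiviral pLKO.1 vector and the infected cells were selected with puromycin. The labels give the sh-NC cells as having no treatment and do not say which of the designed LDB1 hairpins was sequenced. An effect of LDB1 loss and one of that hairpin alone cannot be told apart in this design. Nothing in the labels says that the 2 libraries of a group came from separate cultures, so the p-values measure only the spread between these libraries, which may be technical.

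Cells build purine and pyrimidine rings from amino acids, carbon dioxide and one-carbon units carried by folate, and serine is the main donor of those units. Ribonucleotide reductase and thymidylate synthase then turn ribonucleotides into the precursors of DNA. The methionine cycle spends the same one-carbon units on S-adenosylmethionine, the methyl donor, which also feeds polyamine synthesis. Dividing blood cells use these pathways heavily, and antifolates and purine analogues given in leukemia act on them.

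LDB1 fell from 135 and 120.1 FPKM in the sh-NC libraries to 10.2 and 9.47 FPKM in the sh-LDB1 libraries, 7.73% of the control mean. The library totals that FPKM was scaled by were between 14746656 and 16182674 reads, as recovered from the steps of the values. For the 22 enzymes whose read numbers could be recovered, they ranged from 256 to 33123 reads. Counting error was not estimated for each gene. It weighs more where reads were few and the change small, as for RRM2B (495 to 649 reads) and PSPH (350 to 513 reads). The NB4 label was set against cell type markers, and the markers went against it. The erythroid genes HBZ, an embryonic globin, KLF1 and GATA1 were at 1543, 238 and 227 FPKM in sh-NC replicate 1. Summed FPKM of 14 erythroid markers was 4187 and 4372 in sh-NC against 389.8 and 353 in sh-LDB1, and all 14 were lower past 2-fold in sh-LDB1. Of 10 promyelocytic and granulocytic markers MPO and CTSG were not analysed here, and the other 8 summed to 12.9 and 11.9 FPKM in sh-NC against 41.9 and 38.1 in sh-LDB1, 323% of control. Of these 8, 6 were tested, and LYZ, CSF3R, PRTN3 and AZU1 were higher in sh-LDB1 while CEBPE and CD33 did not pass. The neutrophil elastase gene ELANE, which promyelocytes express strongly, was listed at 0 in all but replicate 1 of sh-LDB1, which had 0.182 FPKM. The name NB4 is therefore used here as the label gives it. Among 18 proliferation markers, summed FPKM was 1426 and 1467 in sh-NC against 534 and 544 in sh-LDB1, 37.3% of control, with all 18 lower. These shifts moved with the enzyme values below, and their part in them was not tested. In bulk RNA, fewer cells of a type and less RNA of a gene per cell cannot be told apart.

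Most of these enzymes were lower after LDB1 knockdown, and the fall reached every group of steps. Of the 37 tested, 33 were lower at an adjusted p-value below 0.05 in limma with Benjamini-Hochberg correction, 1 was higher and 3 did not pass. Among all 13300 genes tested 37.4% were lower and 29.9% were higher by the same rule, against 89.2% of the enzymes lower. Because the list was chosen with earlier results of these data known, such shares describe it and do not test it. Past a 2-fold change as well, 19 enzymes were lower and 0 were higher, against 10.3% and 9.5% of all genes. The 1 higher enzyme, CMPK1, stayed under 2-fold. The median log2 change was -1.07, with a range from -2.23 to 0.79, beside a median of -0.08 over all genes. These log2 changes are on the log2(FPKM + 1) scale, which understates the change of genes with low values. For all 37 the sh-NC and sh-LDB1 values did not overlap, but neither did those of 84.6% of all genes, so separation alone says little about the enzymes. In 35 of the 37 the sh-LDB1 values were the lower ones, as in 46.3% of all genes. A stricter test, limma's treat against a change of 2-fold itself, left 11 enzymes lower and 0 higher, beside 4.37% and 4.27% of all genes.

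The enzymes were also well expressed, and calls were more frequent among such genes. Of the 28 enzymes that averaged 10 FPKM or more, 26 were lower, beside 49.0% of the 4839 genes at that level, and 17 were lower past 2-fold, beside 14.4%. The median change of these 28 was -1.15, beside -0.17 over the 4839 genes. Scaling also bears on the count: with libraries set to the same summed FPKM, the median log2 change of all genes moved up by 0.139 and those of the enzymes by 0.0889 to 0.172, and 14 enzymes were lower past 2-fold rather than 19. PAICS (-0.98), PHGDH (-0.99), RRM1 (-0.97), SHMT1 (-0.93) and SRM (-0.93) were the 5 that came under 2-fold. On that scale 1602 genes of all those tested were higher and 1001 lower past 2-fold, where the values as deposited gave 1264 higher and 1371 lower. A median-of-ratios scaling moved the median of all genes by 0.12 and the enzymes by 0.0771 to 0.148, and left 16 enzymes lower past 2-fold, without RRM1, SHMT1 and SRM, with 1550 genes higher and 1051 lower.

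**Figure D1:**
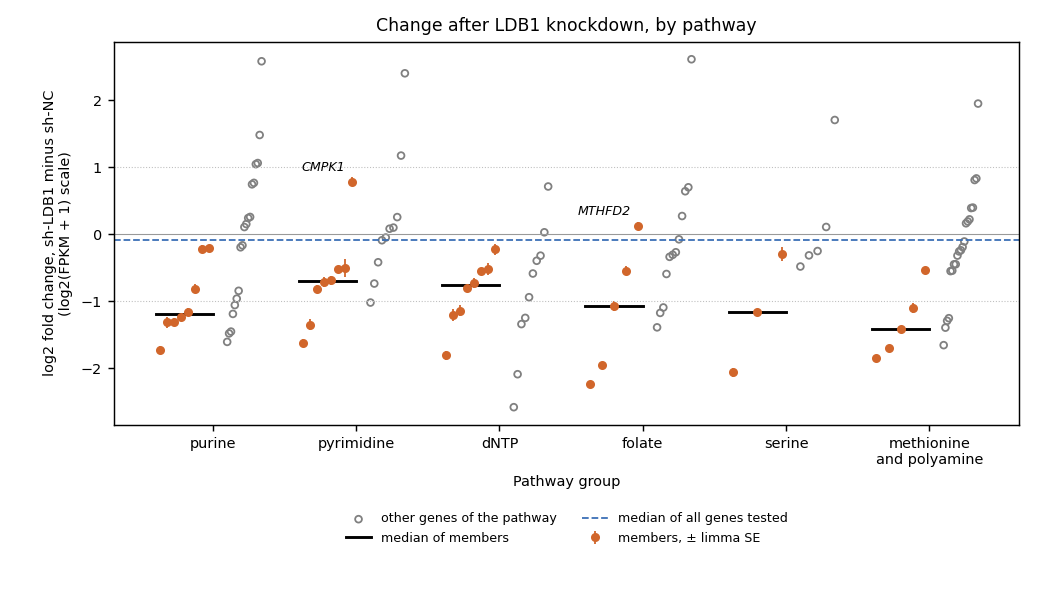
Log2 change of each gene, sh-LDB1 minus sh-NC, on the log2(FPKM + 1) scale, by group of steps. Filled points are the 37 enzymes with their limma standard errors, open points the other genes of the same pathways, black bars the enzyme medians, the dashed line the median of all genes tested (-0.08) and dotted lines a 2-fold change. Of the enzymes 35 lie below 0, and CMPK1 and MTHFD2 lie above it.

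In purine synthesis, all 8 tested enzymes were lower, 5 of them past 2-fold, with a median log2 change of -1.19. The first committed step is made by the amidotransferase PPAT, the later ring-building steps by GART, PFAS, PAICS, ADSL and ATIC, and the last steps to GMP by the IMP dehydrogenases IMPDH1 and IMPDH2 and by GMPS. GART, a protein that carries out several of the ring-building steps and takes one-carbon units from formyl folate, was 42.3 and 46.1 FPKM in sh-NC and 12.8 and 12.6 FPKM in sh-LDB1. It fell the most of the group, with a log2 change of -1.72 (SE 0.0577, adjusted p = 0.000107). GART (ENSG00000159131) lies on the minus strand of GRCh38 chromosome 21, from 33503931 to 33543491.

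Promoter sequences are shown for 5 enzymes of different steps. They were chosen because each lies upstream of the RefSeq start of a gene that fell past 2-fold. A further reason was that their common letters are repeated CCAAT or GC boxes. The values are per gene, so transcripts from a given start were not measured. Chosen for both reasons, the sequences cannot show a link between the boxes and the fall. The sequences are taken from RefSeq (GRCh38.p14), read 5′ to 3′ on the gene's strand, and none overlaps an annotated exon. Capitals mark CCAAT boxes in either direction (CCAAT or ATTGG), which bind the factor NF-Y, in GART, SHMT1, PSAT1 and SRM. In SRM they also mark an E-box (CACGTG), the site of MYC and related factors, and in PPAT they mark GC boxes (GGGCGG, here as CCGCCC on the gene's strand), the site of SP1. The PPAT sequence is the 125 bases between the starts that GENCODE 44 gives for PPAT and for PAICS, which is transcribed the other way. RefSeq places the promoter of PAICS elsewhere, from 56410257 to 56410556 on chromosome 4, and the motif search below read that window for PAICS. For GART the RefSeq start lies inside the GENCODE 44 gene, so the stretch shown lies within the span given above for GART.
GART, chr21:33542932-33543027, minus strand: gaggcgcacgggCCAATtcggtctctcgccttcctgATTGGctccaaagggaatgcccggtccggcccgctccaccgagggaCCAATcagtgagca
PPAT, chr4:56435616-56435740, minus strand: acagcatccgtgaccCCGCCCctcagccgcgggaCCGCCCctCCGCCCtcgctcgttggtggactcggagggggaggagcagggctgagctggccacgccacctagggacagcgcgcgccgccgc
SHMT1, chr17:18363570-18363640, minus strand: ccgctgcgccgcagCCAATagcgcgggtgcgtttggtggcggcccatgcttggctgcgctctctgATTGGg
PSAT1, chr9:78297000-78297085, plus strand: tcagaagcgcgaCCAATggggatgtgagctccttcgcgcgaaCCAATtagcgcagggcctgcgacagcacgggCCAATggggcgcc
SRM, chr1:11060088-11060228, minus strand: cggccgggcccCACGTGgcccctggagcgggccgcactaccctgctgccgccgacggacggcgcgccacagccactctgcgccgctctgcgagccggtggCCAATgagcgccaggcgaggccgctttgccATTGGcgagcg

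Sequence motifs were searched on both strands of the RefSeq promoters, which run from 250 bases before to 50 bases after each start, and 33 of the 38 enzymes had an entry. The CCAAT box was found in 16 enzymes (48.5%), in 35.7% of all 27305 promoters and in 37.3% of the 8401 promoters of tested genes. At least 2 CCAAT boxes were found in 8 enzymes and in 14.3% of the promoters of tested genes. These 8 were DTYMK, GART, MTHFD1, MTHFD2, PSAT1, RRM2, SHMT1 and SRM. Among them MTHFD2 did not pass the test of change, and DTYMK and RRM2 fell by less than 2-fold. At least 3 CCAAT boxes were found in GART, PSAT1 and RRM2, and in 5.32% of the promoters of tested genes. The E-box was found in 8 enzymes (24.2%), namely ATIC, DCK, DHODH, MTHFD1, MTHFD1L, NME1, PPAT and SRM, and in 10.7% of the promoters of tested genes. GC boxes were found in 20 enzymes (60.6%) and in 71.5% of the promoters of tested genes. The E2F motif TTTGGCGC was found in DCK and in 1.25% of the promoters of tested genes, its variant TTTCCCGC in AHCY and TYMS and in 2.86%, and the ATF4 element TGATGNAA in MTHFD1L and in 1.55%. A match describes letters in a window and is not a bound site.

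PPAT and PAICS, which by the GENCODE starts lie head to head across that stretch of chromosome 4, both fell. PPAT was 17.5 and 19.9 FPKM in sh-NC and 7.21 and 6.63 FPKM in sh-LDB1, with a log2 change of -1.31 (SE 0.0823, adjusted p = 0.000335). PAICS, which adds carbon dioxide and then aspartate to the growing ring, went from 62.6 and 67.7 to 28.9 and 28.6 FPKM, a log2 change of -1.15 (SE 0.0537, adjusted p = 0.000172). The ratio of PPAT to PAICS was 0.279 and 0.293 in sh-NC against 0.249 and 0.232 in sh-LDB1, so PPAT fell somewhat further in these libraries. An exact permutation test of that ratio, two-sided, gave p = 0.333, the smallest that 2 against 2 libraries allow, and 0.381 after Benjamini-Hochberg adjustment over 8 such ratios.

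PFAS, which makes the formylglycinamidine intermediate, was 19.4 and 18.6 FPKM in sh-NC and 7.59 and 7.37 FPKM in sh-LDB1, 39.4% of control. ATIC, which closes the ring with a second formyl group, was 37.5 and 40.0 against 15.4 and 14.7 FPKM, 38.9% of control. Both fell past 2-fold, with log2 changes of -1.24 (SE 0.0505) and -1.31 (SE 0.056). ADSL, which releases fumarate in the same pathway, had values of 0.939 and 1.33 FPKM in sh-NC and 0.676 and 0.79 FPKM in sh-LDB1 and was not tested. It was the lowest of the 9 purine enzymes in every library, and 30.6% of its main transcript overlaps another annotated gene on the same strand. How shared reads were counted is not given in the sources used here.

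On the steps from IMP to GMP the fall was smaller. GMPS, which makes GMP, was 30.7 and 33.1 FPKM in sh-NC and 18.3 and 17.2 FPKM in sh-LDB1, a log2 change of -0.81 (SE 0.0606, adjusted p = 0.000532). IMPDH2, the main isoform in dividing cells and the target of mycophenolic acid, went from 126 and 121 to 106 and 108 FPKM, a log2 change of -0.21 (SE 0.0428, adjusted p = 0.0124). IMPDH1 went from 24.5 and 24.999 to 20.6 and 21.9 FPKM, also a log2 change of -0.21 (SE 0.0509, adjusted p = 0.02). Neither IMPDH call held when libraries were set to the same summed FPKM, with adjusted p = 0.502 for IMPDH1 and 0.539 for IMPDH2. The IMPDH1 call was also lost without sh-NC replicate 2 (adjusted p = 0.0655) or sh-LDB1 replicate 1 (0.113), and the IMPDH2 call without sh-LDB1 replicate 1 (0.0943) or replicate 2 (0.0784). Another gene model of the reference annotation shares 98.8% of the main IMPDH2 transcript and was not analysed here. The ratio of the 2 isoforms overlapped between groups, with a difference in log2 ratio of -0.01.

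**Figure D2:**
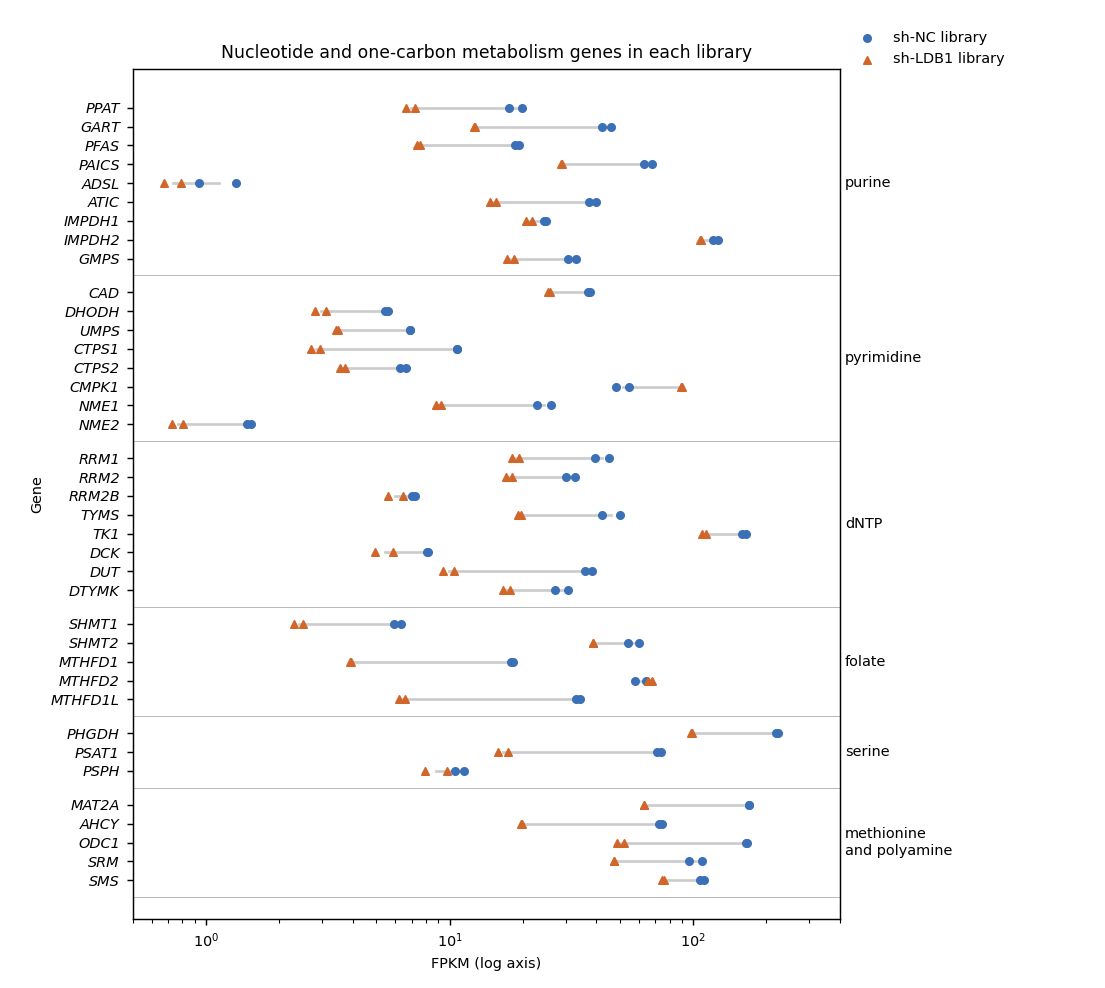
FPKM of each enzyme in every library, on a log axis, in the 6 groups. Circles are the 2 sh-NC libraries, triangles the 2 sh-LDB1 libraries, and grey lines join the group means. PHGDH is the highest at 222 FPKM in an sh-NC library, and the triangles lie to the right of the circles for CMPK1 and MTHFD2.

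Most pyrimidine enzymes were lower, and the kinase CMPK1 was higher. Of 8 tested enzymes 7 were lower, 2 of them past 2-fold, and 1 was higher, with a median log2 change of -0.70. The ring is built by CAD, DHODH and UMPS, after which CTPS1 and CTPS2 make CTP and the kinases CMPK1, NME1 and NME2 add phosphates. CAD, which joins the first 3 reactions in a single protein, was 36.9 and 37.6 FPKM in sh-NC and 25.4 and 25.9 FPKM in sh-LDB1, a log2 change of -0.52 (SE 0.0413, adjusted p = 0.000621). DHODH, the mitochondrial step and a drug target in acute myeloid leukemia, went from 5.59 and 5.41 to 3.11 and 2.81 FPKM, 53.8% of control. UMPS, which finishes UMP, went from 6.88 and 6.85 to 3.50 and 3.42 FPKM, 50.4% of control. All 3 passed the test and none of them fell past 2-fold.

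CTP synthase showed the widest separation between isoforms. CTPS1, the form that proliferating lymphocytes depend on, was 10.8 and 10.7 FPKM in sh-NC and 2.70 and 2.94 FPKM in sh-LDB1, a log2 change of -1.62 (SE 0.0633, adjusted p = 0.000129). CTPS2 went from 6.64 and 6.25 to 3.73 and 3.54 FPKM, a log2 change of -0.68 (SE 0.0668, adjusted p = 0.00113). By FPKM, CTPS1 was at 1.62 and 1.71 times CTPS2 in the sh-NC libraries and at 0.724 and 0.83 times in the sh-LDB1 libraries. Which isoform had more transcripts is uncertain, because annotated exons exceed the main transcript by unlike amounts. They cover 11958 bases for CTPS1, whose main transcript has 2840, and 5531 for CTPS2, whose main transcript has 3953. The length used for a gene is the same in every library, so it does not enter the difference between groups. The difference in log2 ratio was -1.10, with an exact permutation p of 0.333, the smallest possible.

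The nucleotide kinases did not move together. CMPK1, which phosphorylates CMP, UMP and dCMP, was the 1 enzyme that rose: 48.1 and 54.8 FPKM in sh-NC and 90.0 and 88.8 FPKM in sh-LDB1, a log2 change of 0.79 (SE 0.072, adjusted p = 0.000934). NME1, a nucleoside diphosphate kinase, fell from 26.1 and 22.8 to 8.77 and 9.23 FPKM, a log2 change of -1.35 (SE 0.0789, adjusted p = 0.00028). Its neighbour NME2 was 1.53 and 1.47 FPKM in sh-NC and 0.806 and 0.728 FPKM in sh-LDB1, a log2 change of -0.50 (SE 0.129, adjusted p = 0.025), and that call was lost when any single library was left out, with adjusted p from 0.0576 to 0.0754. A read-through gene of the same strand covers 87.4% of the main NME2 transcript and 47.0% of that of NME1, so both levels are uncertain. The read number of NME2 could not be fixed. Its annotated exon length of 2496 bases put it at 62, 54, 32 and 28 reads, the fewest of any tested enzyme. Because CMPK1 is abundant, the summed FPKM of the 8 pyrimidine enzymes was 95.5% of control, although 7 of them fell.

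In the group that makes deoxynucleotides, 7 of 8 enzymes were lower, 3 of them past 2-fold, and RRM2B did not pass, with a median log2 change of -0.76. DUT, which removes dUTP before it can enter DNA, was 38.3 and 36.1 FPKM in sh-NC and 10.5 and 9.41 FPKM in sh-LDB1, a log2 change of -1.81 (SE 0.0689, adjusted p = 0.000123). TYMS, thymidylate synthase and the target of fluorouracil, went from 49.96 and 42.2 to 19.1 and 19.7 FPKM, a log2 change of -1.20 (SE 0.0906, adjusted p = 0.00054). The antisense gene ENOSF1 overlaps 60.0% of the main TYMS transcript and was itself 14.8 and 14.8 FPKM in sh-NC and 7.72 and 7.94 FPKM in sh-LDB1. Whether counting used strand is not given in the sources used here, so reads of the pair cannot be told apart. DTYMK, the kinase that acts next on dTMP, was 59.3% of control, from 30.6 and 27.1 to 16.6 and 17.7 FPKM.

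Ribonucleotide reductase changed in its large subunit and its S-phase small subunit. RRM1, the large subunit, was 39.5 and 45.2 FPKM in sh-NC and 18.1 and 19.4 FPKM in sh-LDB1, a log2 change of -1.14 (SE 0.0818, adjusted p = 0.000476). RRM2, the small subunit of cycling cells, went from 30.0 and 32.8 to 18.1 and 17.1 FPKM, a log2 change of -0.80 (SE 0.0646, adjusted p = 0.000648). RRM2B, the p53-inducible small subunit, was 7.23 and 7.04 FPKM in sh-NC and 5.57 and 6.42 FPKM in sh-LDB1, with a log2 change of -0.22 (SE 0.0802, adjusted p = 0.0659). RRM2 was 4.15 and 4.66 times RRM2B in sh-NC and 3.25 and 2.66 times in sh-LDB1, a difference in log2 ratio of -0.58 with an exact permutation p of 0.333.

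Both salvage kinases of the group were lower, and neither passed 2-fold. TK1, the cytosolic thymidine kinase of S phase, was 164.6 and 159 FPKM in sh-NC and 109 and 113 FPKM in sh-LDB1, 68.4% of control. DCK, which activates cytarabine, went from 8.10 and 8.17 to 4.95 and 5.88 FPKM, a log2 change of -0.51 (SE 0.0879, adjusted p = 0.0066). The ratio of TYMS to TK1 was 0.304 and 0.265 in sh-NC and 0.175 in each sh-LDB1 library, a difference of -0.69 in log2 ratio that again reached only the smallest exact permutation p of 0.333.

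**Figure D3:**
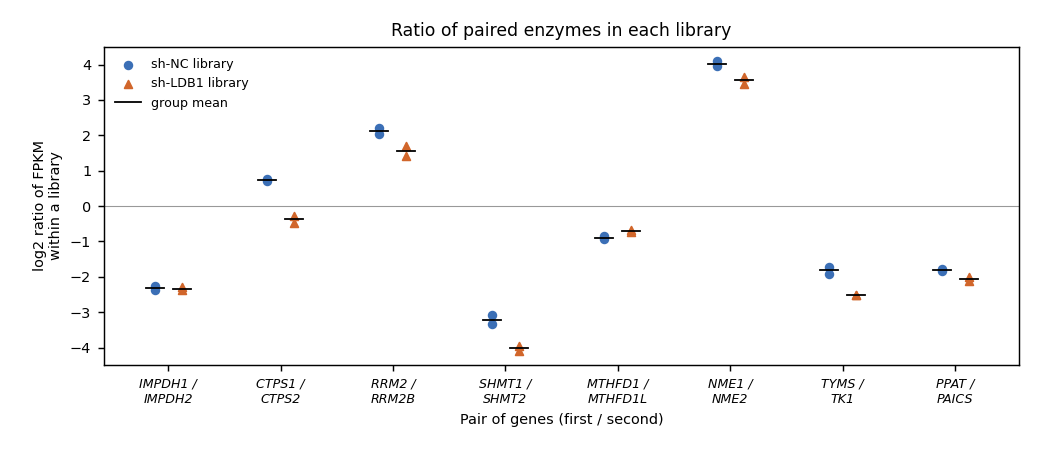
Log2 ratio of the FPKM values of 8 pairs of enzymes within each library. Circles are sh-NC, triangles sh-LDB1 and bars the group means. The CTPS1 to CTPS2 ratio lies above 0 in both sh-NC libraries and below 0 in both sh-LDB1 libraries, and the IMPDH1 to IMPDH2 ratios overlap. Whether a ratio lies above or below 0 depends on the exon lengths used for its genes.

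The folate enzymes held the largest fall of all 37. MTHFD1L, the mitochondrial enzyme that releases formate, was 33.0 and 34.2 FPKM in sh-NC and 6.54 and 6.19 FPKM in sh-LDB1, with a log2 change of -2.23 (SE 0.052, adjusted p = 7.21e-05). MTHFD1, the cytosolic enzyme that takes formate up again into folate, went from 18.2 and 17.8 to 3.95 and 3.89 FPKM, a log2 change of -1.95 (SE 0.0505, adjusted p = 8.04e-05). The level left was 18.9% of control for MTHFD1L and 21.8% for MTHFD1, 2 enzymes that act at opposite ends of the formate route. MTHFD1L (ENSG00000120254) lies on the plus strand of GRCh38 chromosome 6, from 150865679 to 151101887.

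MTHFD2, which precedes MTHFD1L in the mitochondrion, did not move with it. It was 58.0 and 64.2 FPKM in sh-NC and 65.2 and 68.0 FPKM in sh-LDB1, a log2 change of 0.12 (SE 0.0641, adjusted p = 0.15). Scaling to the same summed FPKM gave 0.29 with adjusted p = 0.0156, and leaving out sh-NC replicate 2 gave 0.20 with adjusted p = 0.0343. In each of these settings MTHFD2 would count as higher.

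Serine hydroxymethyltransferases, which pass the one-carbon unit of serine to folate, both fell. SHMT1, the cytosolic form, was 5.92 and 6.34 FPKM in sh-NC and 2.29 and 2.51 FPKM in sh-LDB1, a log2 change of -1.07 (SE 0.0772, adjusted p = 0.000478). SHMT2, the mitochondrial form, went from 59.8 and 53.9 to 38.9 and 38.7 FPKM, a log2 change of -0.54 (SE 0.0622, adjusted p = 0.00188). SHMT2 was the more abundant form in all 4 libraries, with SHMT1 at 0.099 and 0.118 times its level in sh-NC and 0.059 and 0.065 times in sh-LDB1.

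Of the 3 enzymes of serine synthesis from glycolysis, 2 fell past 2-fold, or 1 with libraries set to the same summed FPKM, where PHGDH was at -0.99. PHGDH, which takes the first step and was the most abundant of the 38 in sh-NC, was 222 and 219.9 FPKM in sh-NC and 98.9 and 98.1 FPKM in sh-LDB1, a log2 change of -1.16 (SE 0.0374, adjusted p = 0.000102). PSAT1, the aminotransferase of the middle step, went from 70.8 and 73.5 to 17.5 and 15.7 FPKM, a log2 change of -2.06 (SE 0.0638, adjusted p = 9.57e-05). PSPH, the last step, was 11.5 and 10.5 FPKM in sh-NC and 7.91 and 9.76 FPKM in sh-LDB1, with a log2 change of -0.29 (SE 0.111, adjusted p = 0.0737), and passed when sh-LDB1 replicate 2 was left out, with a log2 change of -0.43 and adjusted p = 0.0327. Summed FPKM of the 3 was 304 and 304 in sh-NC against 124 and 124 in sh-LDB1, 40.8% of control. PSAT1 (ENSG00000135069) lies on the plus strand of GRCh38 chromosome 9, from 78297125 to 78330093, downstream of the stretch with 3 CCAAT boxes shown above.

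All 5 enzymes of the methionine cycle and polyamine synthesis were lower, 4 of them past 2-fold, with a median log2 change of -1.42. MAT2A, which makes S-adenosylmethionine, was 169 and 169.6 FPKM in sh-NC and 62.9 and 62.8 FPKM in sh-LDB1, a log2 change of -1.42 (SE 0.0367, adjusted p = 8.04e-05). AHCY, which clears the product of methylation, fell from 72.6 and 74.6 to 19.7 and 19.8 FPKM, a log2 change of -1.84 (SE 0.0405, adjusted p = 7.03e-05). The replicates of these 2 genes lay within a few percent of each other in both groups. The gene GGCX on the other strand overlaps 19.95% of the main MAT2A transcript and was higher in sh-LDB1, at 17.3 and 16.2 FPKM against 4.47 and 3.86 FPKM in sh-NC.

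Polyamine synthesis starts from ornithine with ODC1 and goes on to spermidine with SRM and spermine with SMS. ODC1, the rate-limiting decarboxylase, was 167 and 165 FPKM in sh-NC and 48.8 and 51.9 FPKM in sh-LDB1, a log2 change of -1.70 (SE 0.0475, adjusted p = 8.31e-05). SRM went from 95.8 and 109 to 47.2 and 47.3 FPKM, a log2 change of -1.10 (SE 0.0726, adjusted p = 0.000382). SMS went from 107 and 111 to 75.9 and 74.6 FPKM, 69.0% of control, so the share left was smallest at the first step and largest at the last.

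**Figure D4:**
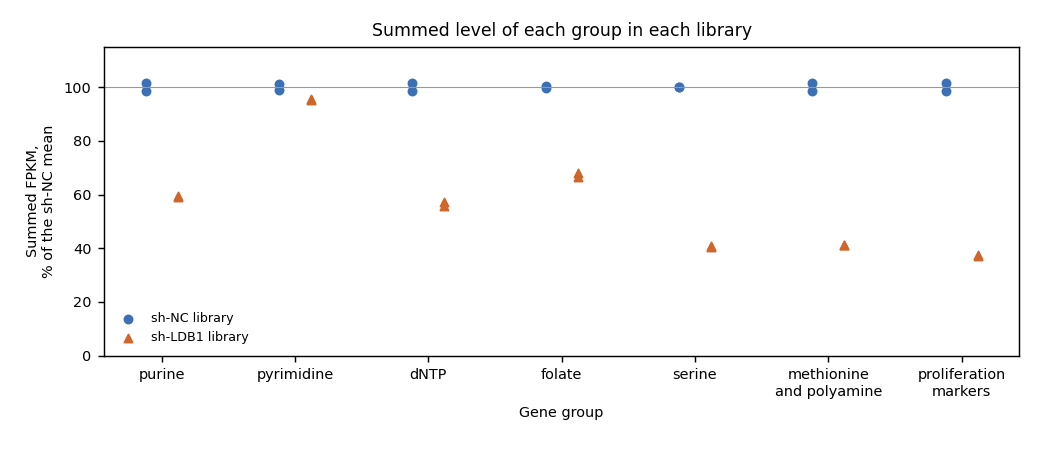
Summed FPKM of each group of enzymes and of the 18 proliferation markers in each library, as percent of the sh-NC mean. Circles are sh-NC and triangles sh-LDB1. The serine and the methionine and polyamine groups lie near 40.8% and 41.2% of control, the pyrimidine group near 95.5%, and the proliferation markers near 37.3%.

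Summed over all 38 enzymes, the level was 1963 and 1986 FPKM in sh-NC and 1053 and 1062 FPKM in sh-LDB1, 53.6% of control. By group the sum was 59.3% of control for purine synthesis, 56.4% for the deoxynucleotide enzymes, 67.2% for the folate enzymes and 41.2% for the methionine and polyamine enzymes. MTHFD2 and SHMT2 were the most abundant enzymes of the folate group. MTHFD2 did not pass the test and SHMT2 fell by less than 2-fold, so the folate sum fell less than the median of its members. The summed proliferation markers fell to a smaller share of control than the enzymes as a whole, and the difference between these shares was not tested.

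Other genes of the same pathways moved in both directions. Of 86 such genes 77 were tested, of which 36 were lower, 22 higher and 19 not called, with 17 lower and 9 higher past 2-fold and a median log2 change of -0.24. The share lower was 46.8%, beside 37.4% of all genes tested, and the share lower past 2-fold was 22.1%, beside 10.3%. Of all genes tested 29.9% were higher and 9.5% were higher past 2-fold, so rises were about as frequent here as among all genes. In purine metabolism 8 of 19 were lower and 8 higher, and in deoxynucleotide metabolism 6 of 10 were lower and 1 higher. Among pyrimidine genes 3 of 10 were lower and 2 higher, among folate genes 6 of 12 and 3, among serine genes 2 of 5 and 1, and among methionine and polyamine genes 11 of 21 and 7.

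Genes with the largest fall or the largest rise in their group are given here. Those that fell supply or join the steps above. MTR, the methionine synthase that links folate to methionine, fell from 14.2 and 14.6 to 3.82 and 4.003 FPKM, a log2 change of -1.65. PRPS1, which makes the ribose donor for both rings, fell from 66.2 and 68.8 to 22.04 and 21.1 FPKM, a log2 change of -1.60. The folate carrier SLC19A1 fell from 9.67 and 10.3 to 3.13 and 3.25 FPKM, NME4 from 56.7 and 47.6 to 25.3 and 25.1 FPKM, and the serine transporter SFXN1 from 29.2 and 30.7 to 21.1 and 21.3 FPKM.

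Those that rose included a folate receptor and enzymes that break nucleotides or polyamines down. FOLR1, a folate receptor, rose from 2.81 and 2.88 to 23.9 and 21.3 FPKM, a log2 change of 2.61 (SE 0.0728, adjusted p = 8.31e-05). AMPD2, an AMP deaminase, rose from 7.997 and 7.25 to 50.1 and 51.2 FPKM, a log2 change of 2.58, which is the largest among the purine genes. UPP1, a uridine phosphorylase, had 0.122 and 0.0444 FPKM in sh-NC and 4.19 and 5.33 FPKM in sh-LDB1, so it reached the 1 FPKM filter through the group where it was high. SAT1, the acetyltransferase that starts polyamine breakdown, rose from 24.1 and 24.3 to 96.5 and 96.4 FPKM, a log2 change of 1.95, so that it rose as the synthetic enzymes ODC1, SRM and SMS fell. SDSL rose from 3.99 and 2.94 to 13.8 and 13.2 FPKM and the mitochondrial thymidine kinase TK2 from 1.63 and 1.64 to 3.33 and 3.31 FPKM.

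Purine salvage and breakdown genes of the list, chosen for description after their values were seen, also moved in both directions. HPRT1, which returns hypoxanthine and guanine to nucleotides, was 103 FPKM in both sh-NC libraries and 37.4 and 35.5 FPKM in sh-LDB1, a log2 change of -1.48. APRT, which does the same for adenine, was lower with a log2 change of -0.96, and PNP, which splits purine nucleosides, was lower with one of -1.45. ADK, the adenosine kinase, was higher, from 16.01 and 17.4 to 20.4 and 19.5 FPKM (log2 change 0.24, adjusted p = 0.0211). ADA, the adenosine deaminase, was higher past 2-fold, from 5.35 and 4.64 to 11.1 and 11.6 FPKM, a log2 change of 1.05.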

How the data were processed

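RNA libraries (Illumina TruSeq) of 2 sh-NC and 2 sh-LDB1 samples of NB4 cells were analysed from 1 table of FPKM values per gene deposited by the authors. Per the labels, reads were aligned to hg38 with HISAT2 2.0.5; the counting tool, gene annotation and use of strand are not given in the sources used here. Columns of the authors' own comparison (fold changes and p-values) were not used. Genes averaging 1 FPKM or more across the 4 libraries were kept, values were taken as log2(FPKM + 1), and groups were compared with limma 3.58.1 in R 4.3.3 (eBayes with a trend) over 13300 genes, with Benjamini-Hochberg adjustment over all of them. A gene was called at an adjusted p-value below 0.05, and past 2-fold where the log2 change also exceeded 1 in size. The procedure was tested on simulated data. Ratios of 8 pairs were compared by a two-sided exact permutation test. Reads per library were recovered from the steps of the FPKM values, of which 84.0% were whole within 0.02 for genes with a single transcript length. Transcript overlaps came from GENCODE 44 and promoters from RefSeq. All enzymes chosen by name are reported, and of the other pathway genes the largest rise and fall past the threshold in each group, except 1 gene that is not reported here. The members and gene lists were chosen with earlier results of these data known. Alternatives changed the pseudocount, the filter, the scaling, the trend, the fold threshold and the libraries included.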

Additional observations from a re-analysis of the deposited data

How the results depend on the processing

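All 35 enzymes with a negative log2 change kept that sign in every setting in which they were tested, and 30 to 33 of those tested passed as lower. Median log2 changes moved with the scale. Over all enzymes the median was -1.11 with a pseudocount of 0.1 or 0.01, -0.94 with no filter, -0.93 with the same summed FPKM and -0.95 with a median of ratios. For purine enzymes it was -1.26 with a pseudocount of 0.01, -1.03 with the same summed FPKM and -1.05 with a median of ratios. For pyrimidine enzymes the values with pseudocounts of 0.1 and 0.01, the same summed FPKM and a median of ratios were -0.88, -0.93, -0.56 and -0.58, for deoxynucleotide enzymes -0.79, -0.79, -0.59 and -0.62, and for folate enzymes -1.32, -1.35, -0.93 and -0.95. Under the 2 scalings serine enzymes gave -0.99 and -1.01, and methionine and polyamine enzymes -1.24 and -1.27. Leaving out 1 library gave -1.10 to -1.004 over all enzymes, -0.74 to -0.66 for pyrimidine, -0.77 to -0.75 for deoxynucleotide and -1.12 to -1.02 for folate enzymes.

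The calls of 5 enzymes depended on the setting. IMPDH1 gave -0.05 with the same summed FPKM and -0.07 with a median of ratios, and IMPDH2 -0.03 and -0.06, none past the threshold. MTHFD2 gave 0.29 and 0.27 under these scalings, both past it. Without 1 library, IMPDH1 ranged from -0.25 to -0.17, IMPDH2 from -0.24 to -0.17, NME2 from -0.53 to -0.47, MTHFD2 from 0.05 to 0.20 and PSPH from -0.43 to -0.16. A test against a 2-fold change (treat) left 11 enzymes lower, 9 other pathway genes lower, and 568 genes higher and 581 lower of all tested. With no fold threshold 33 enzymes were lower and 1 higher, 36 other pathway genes were lower and 22 higher, and 4978 of all genes were lower and 3983 higher. Samples with the same replicate number did not deviate together over all genes (correlation 0.0196), which cannot show whether they were handled as pairs. The fit with replicate as a block gave 33 enzymes lower and 1 higher and changed no call among them. With a pseudocount of 1, 5 of the 8 pair ratios moved by more than the spread between libraries. The lowest recovered read number of an enzyme was 256, and the number of libraries, 2 a group, set the smallest p of the permutation tests.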

Other observations

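The exon lengths behind the FPKM values could be recovered for 22 of the enzymes, and they were longer than the main annotated transcript for most. The ratio of the recovered length to that of the main transcript had a median of 1.43 and ranged from 0.992 for PSAT1 to 4.94 for PHGDH. The recovered length was 9217 bases for PHGDH, whose main transcript has 1866 bases, and 3438 bases for NME1, whose main transcript has 890 bases. A level that is divided by a longer length than the transcript in use is too low beside that of other genes, so the order of levels between enzymes is less certain than their differences between groups.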
